A study of Mus musculus with 10 samples.

Results

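The transcripts described here encode the subunits of the proteasome, the protease that degrades ubiquitin-tagged proteins. They were chosen by symbol, as genes whose name starts with Psma, Psmb, Psmc or Psmd followed by a digit, leaving out the inducible subunits Psmb8, Psmb9 and Psmb10 and 1 pseudogene. The rule matched 35 of the 11790 genes with deposited values. Of these, 34 encode proteasome proteins, 14 in the core particle (Psma1 to Psma7 and Psmb1 to Psmb7) and 20 named for the regulatory particle (Psmc1 to Psmc6 and 14 Psmd genes). Psmc3ip matched by letters alone: it encodes a partner protein of meiotic recombination, averaged 0.888 and 1.11 FPKM in control and A-PDK1KO hearts, and is not counted further. All 34 proteasome genes passed the filter for testing, a mean of at least 1 FPKM over the 10 hearts, which 9987 genes passed in all.

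RNA came from whole hearts of 10 mice aged 10 to 11 weeks and fed at random. The 5 A-PDK1KO mice lack 3′-phosphoinositide-dependent kinase 1 (PDK1, gene Pdpk1), a kinase that activates AKT downstream of insulin, in adipocytes only. The 5 control mice carry the PDK1 flox/flox allele, with no deletion named in their label. The sources used here do not give the Cre driver, the sex or the background strain. The contrast therefore asks how the heart's transcripts differ when the gene is missing in fat, a setting the series title places among models of diabetic cardiomyopathy.

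The proteasome is a barrel with a cap. The barrel, or core particle, stacks outer rings of alpha subunits, which form a gate, on inner rings of beta subunits, which carry the proteolytic sites. The cap, or regulatory particle, recognises ubiquitin chains, removes them, and uses a ring of ATPases to unfold the substrate and push it through the gate. In heart muscle the proteasome turns over sarcomere and signalling proteins, and its activity is a long-standing subject in muscle wasting and cardiomyopathy.

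Depth was even, with 9249256 to 11384423 counted reads in each heart by the value of 1 read. The mitochondrial share of them ran from 32.7%, in control replicate 4, to 41.5%, in A-PDK1KO replicate 1. Libraries stood apart: A-PDK1KO replicate 2 was the highest of the 10 hearts for 35.7% of all genes tested and control replicate 4 for 22.5%, so the counts of calls and of directions over all proteasome genes are also given without both. Control replicate 1 stood apart in red blood cell genes, with Hbb-bs at 757.7 FPKM against 16.4 to 131.5 FPKM in the other hearts and Alas2 at 11.65 FPKM against at most 2.22 FPKM. All 5 red blood cell markers lay below 0, none called. The atrial gene Myl7 reached at least 10 FPKM in 4 hearts and stayed under it in 6, 3 of each group, so the hearts held unequal amounts of atrial RNA. Pdpk1 (chromosome 17, 24073680 to 24150924) was at 3.77, 3.77, 3.54, 3.54 and 3.14 FPKM in control replicates 1 to 5 and at 2.73, 4.04, 3.64, 3.70 and 3.17 FPKM in the A-PDK1KO hearts. The groups overlapped (difference −0.04 on the log2(FPKM + 1) scale, exact two-sided permutation p = 0.714, whose smallest possible value is 0.00794), and since the deletion is in adipocytes, heart RNA does not check it. All 6 cardiomyocyte markers were present and lay below 0 in A-PDK1KO hearts, none called, with summed levels of 11430 to 13960 FPKM across controls and 10710 to 12490 FPKM across A-PDK1KO hearts. By limma, 3 of the 6 passed at an unadjusted p under 0.05, where 7.03% of all genes passed in that direction. The 4 atrial markers also lay below 0, none called, with summed levels of 214.3 to 579.4 FPKM across controls and 184.5 to 267.6 FPKM across A-PDK1KO hearts. Most of these sums was Nppa, which averaged 374.7 and 205.8 FPKM in control and A-PDK1KO hearts. Nppa did not follow Myl7: control replicate 1 had Nppa at 486.5 FPKM and Myl7 at 0 FPKM. No marker of fibroblasts, endothelial cells, macrophages or smooth muscle and pericytes was called. Above 0 lay 4 of 5 fibroblast, 5 of 5 endothelial, 2 of 5 macrophage and 3 of 5 smooth muscle and pericyte markers. Of the 5 adipocyte markers only Fabp4 and Adig were among the genes analysed here. Neither was called: Fabp4 averaged 97.5 and 96.6 FPKM (−0.03, adjusted p = 0.962), and Adig 1.87 and 3.34 FPKM (0.60, adjusted p = 0.113, from 8 to 41 reads per heart), 1.79-fold higher in A-PDK1KO hearts. Of the 5 markers of T, B and NK cells none was among the genes analysed here. The part of these other cell types in the proteasome values was not tested. In bulk tissue, fewer cells of a type and less RNA per cell cannot be told apart.

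Transcripts of the proteasome were close to equal in both groups. One of the 34 genes, the ATPase gene Psmc3, was called (limma, Benjamini-Hochberg adjusted p under 0.05), and it was lower in A-PDK1KO hearts. Among all 9987 genes tested, 2.08% were called in either direction, 0.871% lower and 1.21% higher. At an unadjusted p under 0.05, 4 proteasome genes passed, all lower (Psmc3, Psmb5, Psma7 and Psmb6), where 15.6% of all genes passed in either direction and 7.03% lower. In 2 genes, Psmc3 and Psmb6, every A-PDK1KO heart lay below every control heart, a pattern that 2.23% of all genes showed in this direction and 4.96% in either. These counts are near the background of the whole table and are not a result about the proteasome as a set. Without control replicate 4 and A-PDK1KO replicate 2, limma called 0 proteasome genes. In that fit 6 of the 34 passed at an unadjusted p under 0.05, as did 1719 of all 9831 genes tested. Groups did not overlap for 4 genes (Psmc3, Psmb6, Psmb5 and Psma7), but with fewer hearts per group this pattern is easier to reach. Its share over all genes in that fit was not counted. On whole reads recovered from the FPKM, limma voom called 0 of the 34 genes (adjusted p = 0.0503 for Psmc3). At an unadjusted p under 0.05, 3 passed by voom, as did 1505 of all 9806 genes tested that way. The count over all genes, 208, was itself unsteady: without control replicates 1, 3 or 5 it was 123, 77 or 96, and without A-PDK1KO replicates 1, 3 or 5 it was 106, 62 or 57.

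The precision of these values bounds the differences. The 95% interval of the log2 difference lay within −0.3 and 0.3 for 26 of the 34 genes. The lowest bound of any was −0.37, for Psmc3, and the highest 0.46, for Psmd11. Proteasome transcripts varied little between control hearts: their median coefficient of variation was 7.35%, against 13.3% over all genes tested. The steadiest was Psma5, at 1.45%, and the most variable the chaperone gene Psmd10, at 19.9%. The median absolute log2 difference between groups was 0.0709 over the proteasome genes, against 0.0996 over all genes. Median control levels were 25.99 FPKM for the proteasome genes and 4.338 FPKM over all genes tested. Neither comparison with all genes was matched for level, and what part level has in them was not tested.

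**Figure D1:**
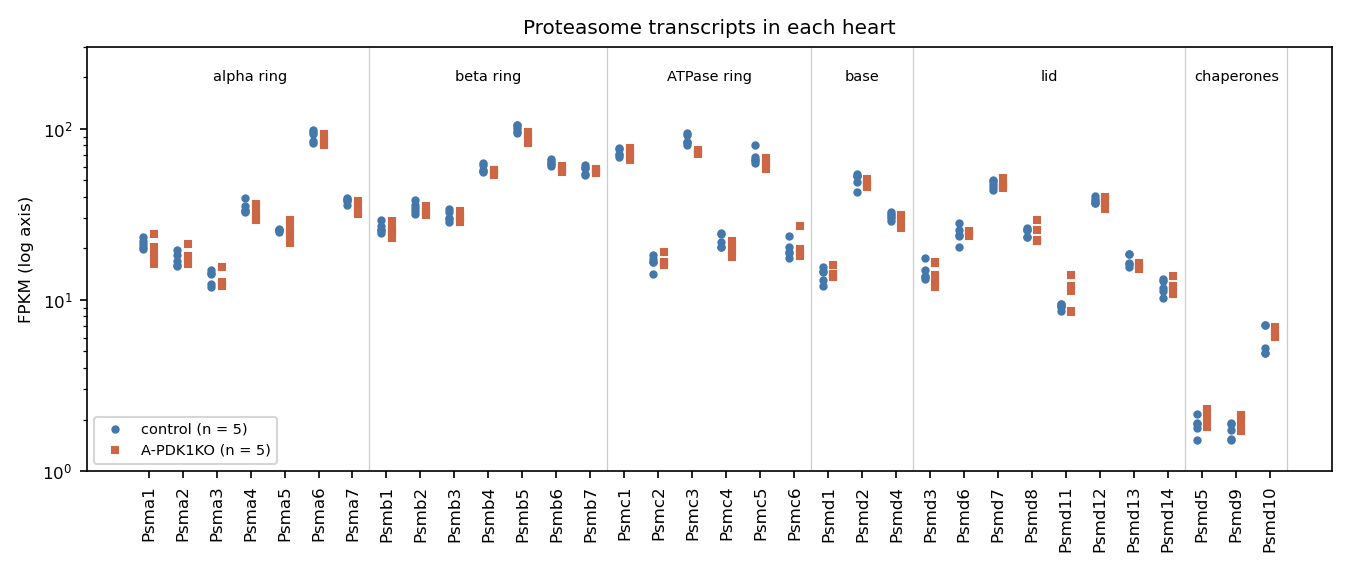
FPKM of each of the 34 proteasome genes in each of the 10 hearts, on a log axis, with genes grouped by their place in the complex, circles for 5 control hearts and squares for 5 A-PDK1KO hearts. Levels run from near 1.7 FPKM for Psmd9 to about 100.6 FPKM for Psmb5 in controls, and the groups overlap for every gene other than Psmc3 and Psmb6.

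By direction, 24 of the 34 log2 differences lay below 0 and 10 above, with a median of −0.04, but under scaling without mitochondrial and haemoglobin genes 14 lay below 0 and the median was 0.02. On the TPM scale 23 lay below 0, with median-of-ratios factors 26, and with quantile normalization 19. In the 6 hearts with Myl7 under 10 FPKM, 16 lay below 0 and 18 above, with a median of 0.0018. Single hearts moved the median as well: it was −0.08 without A-PDK1KO replicate 2, and −0.019 and −0.017 without A-PDK1KO replicates 1 and 5, and without control replicate 4 and A-PDK1KO replicate 2 together it was −0.07, with 26 below 0. Over all genes tested 45.4% of differences lay below 0 and the median was 0.02. Under scaling without mitochondrial and haemoglobin genes the median over all genes was 0.07, so it lay above the proteasome median on both scales. In the hearts with Myl7 under 10 FPKM it was 0.025. By particle, 13 of 14 core genes lay below 0 (median −0.07), against 11 of 20 genes named for the regulatory particle (median −0.01). Those 20 include 3 assembly chaperone genes, all above 0, and without them 11 of 17 lay below 0 (median −0.03). Scaled without mitochondrial and haemoglobin genes, the counts for the core and for all 20 were 8 of 14 and 6 of 20. With quantile normalization these counts were 11 of 14 and 8 of 20. They were 13 of 14 and 10 of 20 on the TPM scale and 13 of 14 and 13 of 20 with median-of-ratios factors. In the hearts with little Myl7 they were 10 of 14 and 6 of 20, and without both named hearts 14 of 14 and 12 of 20. Without those same hearts, 7 of 7 alpha ring genes, 7 of 7 beta ring genes, 5 of 6 ATPase genes and 5 of 8 lid genes lay below 0, against 5 of 7, 5 of 7, 1 of 6 and 3 of 8 in the hearts with little Myl7.

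**Figure D2:**
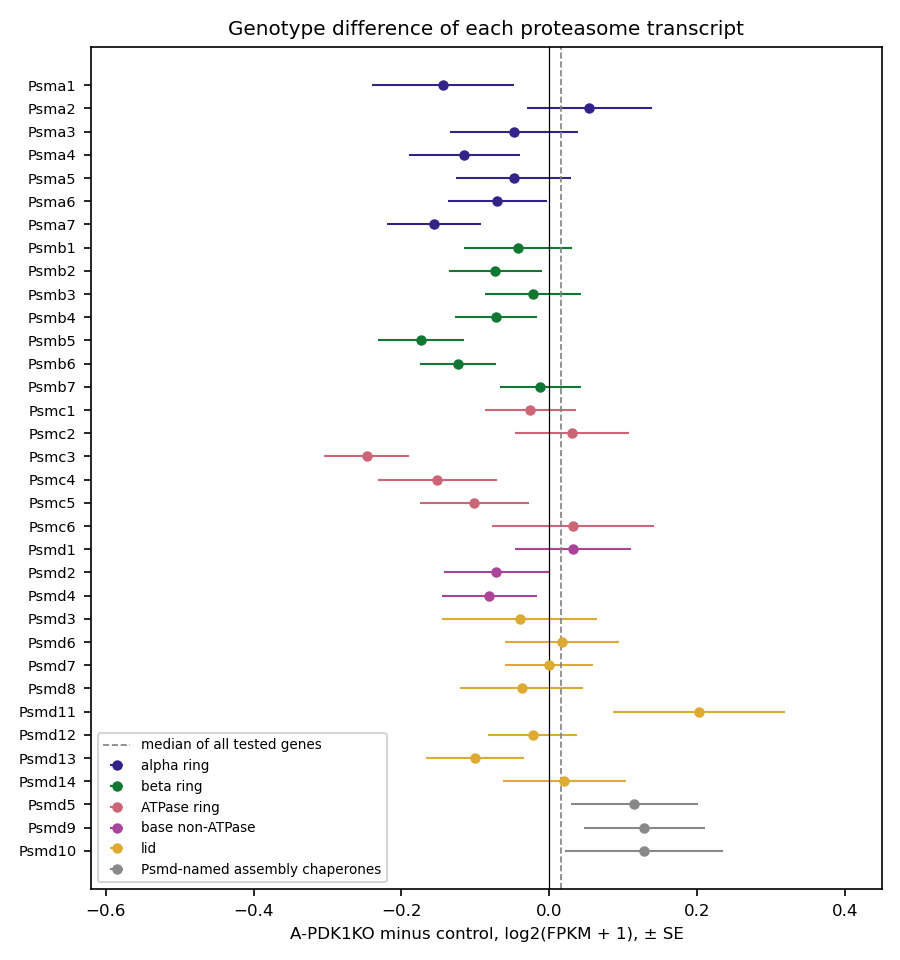
Difference between groups for each proteasome gene, A-PDK1KO minus control on the log2(FPKM + 1) scale, with its standard error (n = 5 per group) and a dashed line at the median of all tested genes, 0.02. Points lie left of 0 for all 7 beta ring genes and right of 0 for the 3 chaperone genes, and Psmc3 is the gene farthest to the left. Scaled without mitochondrial and haemoglobin genes, 4 of the 7 beta ring genes lie left of 0, and the median of all tested genes is 0.07.

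The 7 alpha ring genes encode the outer rings, whose N-terminal tails close the entry gate. None was called by limma or voom (1 passed at an unadjusted p under 0.05 by limma). Their control means ran from 13.5 FPKM for Psma3 to 91.1 FPKM for Psma6. On the deposited scale 6 of 7 differences lay below 0, as on the TPM scale, with median-of-ratios factors and with quantile normalization. Scaled without mitochondrial and haemoglobin genes, 4 of 7 did. The largest difference was that of Psma7 (chromosome 2, 180036374 to 180042433), which stood at 39.6, 38.2, 38.8, 35.9 and 37.6 FPKM in control replicates 1 to 5 against 35.4, 38.0, 33.3, 31.6 and 32.1 FPKM in A-PDK1KO replicates 1 to 5. A-PDK1KO replicate 2 lay among the controls and the other 4 lay below all of them. The difference was −0.16 ± 0.06 (SE, n = 5 per group; limma adjusted p = 0.259). The smallest was that of Psma5, at 25.6, 25.6, 25.9, 25.8 and 24.9 FPKM in controls and at 22.4, 29.2, 24.9, 26.1 and 21.6 FPKM in A-PDK1KO hearts. Controls were within 1 FPKM of each other, while the A-PDK1KO hearts lay on both sides of them (−0.05 ± 0.08, adjusted p = 0.832). The other 5 were Psma1 (21.4 and 19.4 FPKM in control and A-PDK1KO means), Psma2 (17.3 and 18.0 FPKM), Psma3 (13.5 and 13.0 FPKM), Psma4 (34.8 and 32.1 FPKM) and Psma6 (91.1 and 86.7 FPKM), with adjusted p from 0.507 to 0.853. Psma2, Psma3, Psma4 and Psma5 are among the 9 proteasome genes with near-identical copies elsewhere in the genome (at least 95% identity over 200 bases; the others are Psmb3, Psmb5, Psmc1, Psmd2 and Psmd11), so their counts are uncertain.

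The sequence before the start of Psma7 is shown because this gene had the largest difference of its ring. The 250 bases upstream of its RefSeq start (build GRCm38.p6, chr2:180042465-180042714, minus strand) hold 1 CCAAT box, in capitals, 196 to 192 bases before the start.
Psma7: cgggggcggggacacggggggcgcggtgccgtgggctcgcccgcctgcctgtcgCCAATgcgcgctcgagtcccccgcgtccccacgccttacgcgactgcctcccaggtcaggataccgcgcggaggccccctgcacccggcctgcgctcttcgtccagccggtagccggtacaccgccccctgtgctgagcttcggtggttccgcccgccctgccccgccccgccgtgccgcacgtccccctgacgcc

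The 7 beta ring genes encode the inner rings. Psmb5, Psmb6 and Psmb7 carry the proteolytic sites, which cut after hydrophobic, acidic and basic residues respectively, while the products of Psmb1, Psmb2, Psmb3 and Psmb4 have no active site. None was called by limma or voom (2 passed at an unadjusted p under 0.05 by limma). All 7 differences lay below 0 on the deposited scale, on the TPM scale and with median-of-ratios factors. However, 4 of 7 did when scaled without mitochondrial and haemoglobin genes and 5 of 7 after quantile normalization. Psmb5 (chromosome 14, 54614119 to 54618022), the site that bortezomib blocks, had the highest control mean of the proteasome genes. It was at 96.9, 104.4, 101.4, 94.9 and 105.4 FPKM in control replicates 1 to 5 against 82.1, 85.8, 89.7, 92.7 and 95.4 FPKM in A-PDK1KO replicates 1 to 5. Only A-PDK1KO replicate 5 reached the range of the controls. The means were 100.6 ± 4.58 and 89.2 ± 5.30 FPKM (SD, n = 5 each), a difference of −0.17 ± 0.06 (SE; limma adjusted p = 0.168). A near-identical copy, Gm3375, matches Psmb5 at 99.7% over 796 bases, so reads could be split between them.

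Psmb6 (chromosome 11, 70525367 to 70527858) was at 60.8, 64.7, 62.9, 62.3 and 66.3 FPKM in controls and at 60.8, 56.0, 56.7, 58.7 and 58.4 FPKM in A-PDK1KO hearts. The groups did not overlap, but by a narrow margin, from 60.77 FPKM in the highest A-PDK1KO heart to 60.82 FPKM in the lowest control heart. The difference was −0.12 ± 0.05 (adjusted p = 0.265). Psmb7 was at 58.5, 61.0, 54.2, 53.6 and 59.2 FPKM in controls and at 55.1, 58.2, 56.5, 58.1 and 56.0 FPKM in A-PDK1KO hearts. Every A-PDK1KO heart lay within the control range, and the difference of −0.01 had a 95% interval from −0.13 to 0.11 (adjusted p = 0.950). The means of the 4 structural genes were 26.4 and 25.7 FPKM for Psmb1, 34.7 and 32.9 FPKM for Psmb2, 30.9 and 30.4 FPKM for Psmb3, and 59.0 and 56.0 FPKM for Psmb4 in control and A-PDK1KO hearts, with adjusted p from 0.591 to 0.918.

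The upstream sequences of Psmb5 and Psmb6 are shown because these catalytic genes had an unadjusted p under 0.05 and each holds the letters of an antioxidant response element, TGACNNNGC, in capitals. That element is bound by the NRF family, including the factor encoded by Nfe2l1 that activates proteasome genes when proteolysis is impaired. It lies 47 to 39 bases before the RefSeq start of Psmb5 (chr14:54617996-54618245, minus strand) and 9 to 1 bases before that of Psmb6 (chr11:70525107-70525356, plus strand; both GRCm38.p6).
Psmb5: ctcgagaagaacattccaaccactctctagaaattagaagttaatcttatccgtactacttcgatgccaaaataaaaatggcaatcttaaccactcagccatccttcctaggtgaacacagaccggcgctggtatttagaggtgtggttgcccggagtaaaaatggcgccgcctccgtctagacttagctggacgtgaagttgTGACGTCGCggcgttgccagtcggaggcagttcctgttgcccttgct
Psmb6: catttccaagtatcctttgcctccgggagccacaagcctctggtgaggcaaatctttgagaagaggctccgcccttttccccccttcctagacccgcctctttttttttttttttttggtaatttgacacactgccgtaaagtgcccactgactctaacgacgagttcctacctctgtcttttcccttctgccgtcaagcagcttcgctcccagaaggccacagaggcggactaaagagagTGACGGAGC

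**Figure D3:**
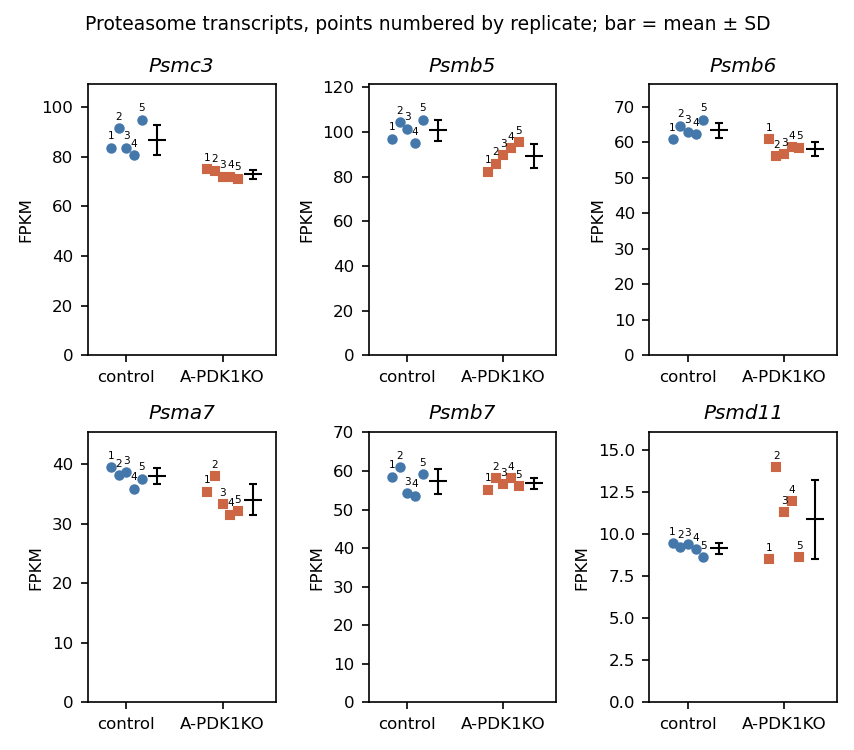
FPKM of 6 proteasome genes in each heart, with points numbered by replicate, circles for control and squares for A-PDK1KO hearts, and bars for mean ± SD (n = 5 per group). Psmc3 shows the widest gap between groups, Psmb6 a narrow one, Psmb7 none, and Psmd11 has 3 A-PDK1KO hearts above all controls.

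The 6 ATPase genes encode the ring at the base of the cap that unfolds substrates. Psmc3 (chromosome 2, 91054009 to 91066369), whose protein helps open the gate with its C-terminal tail, was lower in A-PDK1KO hearts. It was at 83.7, 91.6, 83.7, 80.5 and 94.9 FPKM in control replicates 1 to 5 against 75.1, 74.4, 72.0, 72.0 and 71.1 FPKM in A-PDK1KO replicates 1 to 5, from 1877 to 2651 reads per heart. All A-PDK1KO hearts lay within 4 FPKM of each other and below the lowest control. The means were 86.9 ± 6.08 and 72.9 ± 1.71 FPKM, 1.19-fold higher in controls, a difference of −0.25 ± 0.06 (95% interval −0.37 to −0.12, limma adjusted p = 0.0496). The call sat at the threshold: it held without control replicate 4 (0.0422) and was lost without any other single heart, with adjusted p from 0.0650 to 0.125, though the difference stayed between −0.27 and −0.22 in these fits. Over all 24 other settings the call was lost in 20. There the difference ran from −0.28 to −0.16, and the limma adjusted p reached 0.708. Psmc3 overlaps exons of Slc39a13 on the other strand (2.70 and 2.16 FPKM in control and A-PDK1KO hearts, adjusted p = 0.324), and the sources used here do not give the strand setting of the counting.

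The other 5 ATPase genes were not called by limma or voom, nor did they pass at an unadjusted p under 0.05. Psmc1 had the smallest difference and was at 68.1, 76.2, 70.3, 70.9 and 76.7 FPKM in controls and at 69.8, 68.4, 74.6, 77.1 and 66.0 FPKM in A-PDK1KO hearts. The highest and the lowest of these 10 values were both from A-PDK1KO hearts (−0.03 ± 0.06, adjusted p = 0.90). Psmc4 averaged 22.27 and 19.95 FPKM (−0.15 ± 0.08, adjusted p = 0.395) and Psmc5 68.5 and 63.6 FPKM (−0.10 ± 0.07, adjusted p = 0.569). Psmc2, at 16.6 and 16.9 FPKM, and Psmc6, at 19.9 and 20.5 FPKM, lay above 0, by 0.03 each. The proteins form 1 ring in equal numbers, whereas the control means of their transcripts ran from 16.6 FPKM for Psmc2 to 86.9 FPKM for Psmc3.

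The rest of the base comprises Psmd1 and Psmd2, large scaffolds of which Psmd2 docks the shuttle proteins that deliver substrates, and Psmd4, a receptor for ubiquitin chains. None was called or passed at an unadjusted p under 0.05, as held for the lid and the chaperone genes. Psmd1 averaged 14 and 14.3 FPKM in control and A-PDK1KO hearts, Psmd2 50.4 and 47.7 FPKM, and Psmd4 31.0 and 29.2 FPKM, with adjusted p from 0.604 to 0.902. Of the subunits outside the naming rule, the ubiquitin receptor Adrm1 averaged 13.2 and 13.0 FPKM (adjusted p = 0.923) and the small lid subunit Sem1 22.5 and 20.7 FPKM (adjusted p = 0.532).

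The lid of 8 Psmd genes holds the deubiquitinase Psmd14, which cuts the chain off the substrate, its partner Psmd7, and 6 structural subunits. None was called, and 5 of 8 differences lay below 0, with 1 of 8 when scaled without mitochondrial and haemoglobin genes. On the TPM scale 4 of 8 did, with quantile normalization 3 and with median-of-ratios factors 7. Psmd7 had the smallest difference of all 34 genes. It was at 45.9, 49.3, 47.5, 50.2 and 44.1 FPKM in controls and at 45.01, 46.2, 51.3, 48.3 and 46.1 FPKM in A-PDK1KO hearts. Both groups averaged 47.4 FPKM, with a 95% interval of the log2 difference from −0.13 to 0.13. Psmd14 averaged 11.9 and 12.0 FPKM (adjusted p = 0.946).

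Psmd11 (chromosome 11, 80428615 to 80473248), a lid subunit that clamps the cap to the core, had the largest positive difference. It was at 9.47, 9.26, 9.42, 9.11 and 8.64 FPKM in control replicates 1 to 5 against 8.51, 14, 11.3, 12.0 and 8.64 FPKM in A-PDK1KO replicates 1 to 5. A-PDK1KO replicates 2, 3 and 4 lay above every control, whereas replicates 1 and 5 lay just below the lowest control. The coefficient of variation was 3.62% in controls and 21.4% in A-PDK1KO hearts, and the difference of 0.20 ± 0.12 was not called (adjusted p = 0.444). Psmd11 has near-identical copies, Gm14048 and A730017L22Rik, so its counts are uncertain. The remaining lid genes were Psmd3 (14.7 and 14.3 FPKM), Psmd6 (24.4 and 24.5 FPKM), Psmd8 (24.8 and 24.3 FPKM), Psmd12 (38.0 and 37.5 FPKM) and Psmd13 (17.0 and 15.8 FPKM), with adjusted p from 0.516 to 0.950.

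The upstream sequence of Psmd11 is shown as a contrast, since its 250 bases (chr11:80428365-80428614, plus strand, GRCm38.p6, from RefSeq) hold none of the 4 motifs searched.
Psmd11: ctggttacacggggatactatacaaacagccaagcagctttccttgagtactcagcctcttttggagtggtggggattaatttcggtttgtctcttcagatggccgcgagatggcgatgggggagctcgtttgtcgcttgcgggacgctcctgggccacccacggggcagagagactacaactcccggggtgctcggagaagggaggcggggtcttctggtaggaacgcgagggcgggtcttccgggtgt

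Psmd5, Psmd9 and Psmd10 carry subunit names but encode chaperones that bind the ATPases during assembly of the base and leave the finished particle. All 3 differences lay above 0, also under each of the 4 other scalings, and none was called. Psmd5 averaged 1.85 ± 0.231 and 2.08 ± 0.211 FPKM in control and A-PDK1KO hearts (SD, n = 5 each; log2 difference 0.12, adjusted p = 0.579). Psmd9 averaged 1.72 ± 0.189 and 1.97 ± 0.179 FPKM (0.13, adjusted p = 0.492), and Psmd10 5.86 ± 1.17 and 6.42 ± 0.388 FPKM (0.13, adjusted p = 0.628). Their levels were the lowest of the 34 genes, from 68 to 189 reads per heart, and on the log2(FPKM + 1) scale the change of such low genes is understated.

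Core and regulatory genes were then compared heart by heart, as the mean of log2(FPKM + 1) over each group of genes. The core mean was 5.31, 5.30, 5.25, 5.23 and 5.20 in control replicates 1 to 5 and 5.14, 5.31, 5.11, 5.20 and 5.14 in A-PDK1KO replicates 1 to 5. A-PDK1KO replicate 2 had the highest core mean of all 10 hearts, replicate 4 fell among the controls, and the other 3 lay below every control. The regulatory mean was 4.33, 4.41, 4.38, 4.37 and 4.39 in controls and 4.30, 4.46, 4.37, 4.42 and 4.28 in A-PDK1KO hearts, which lay on both sides of the controls. Core minus regulatory was 0.88 ± 0.06 in controls and 0.82 ± 0.05 in A-PDK1KO hearts (SD, n = 5 each), a difference of −0.07 (−0.04 without control replicate 1) that is about as large as the spread in either group, with ranges that overlapped (0.81 to 0.98 and 0.75 to 0.86). Leaving out the 3 chaperone genes, which are not part of the finished cap, the difference was −0.04. These are descriptions without a test, since the genes were chosen by name and are summed on one scale.

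**Figure D4:**
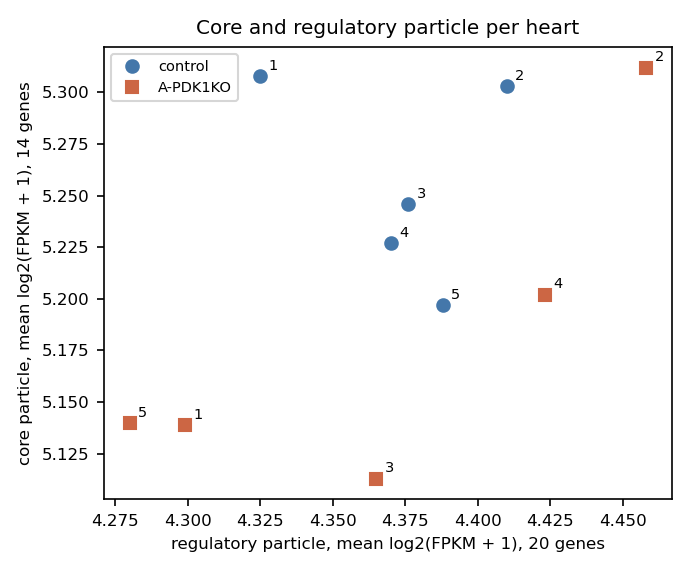
Mean log2(FPKM + 1) over the 14 core genes (vertical axis) against that over the 20 regulatory genes (horizontal axis), 1 point per heart numbered by replicate, circles for control and squares for A-PDK1KO hearts. Control hearts span 5.20 to 5.31 for the core, while A-PDK1KO hearts span 5.11 to 5.31, with replicate 2 at the upper right and replicates 1, 3 and 5 below all controls on the vertical axis.

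As sums of FPKM, the beta ring stood at 367.8 to 385.5 FPKM in control hearts and at 339.2 to 354.9 FPKM in A-PDK1KO hearts, without overlap on the deposited scale and with overlap under each of the 4 other scalings. The alpha ring (226.6 to 258.0 and 211.9 to 258.1 FPKM), the ATPase ring (271.7 to 310.7 and 248.4 to 276.2 FPKM) and the lid (179.9 to 192.5 and 174.6 to 200.8 FPKM) overlapped. The summed core was 613.9 ± 17.4 and 577.0 ± 23.2 FPKM in control and A-PDK1KO hearts, and the summed regulatory subunits were 569.2 ± 22.6 and 543.0 ± 25.0 FPKM (SD, n = 5 each). The core to cap ratio of these sums was 1.08 ± 0.05 and 1.06 ± 0.03, so on this scale the balance of both particles differed by less than the spread within groups.

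Lower values went with higher levels. The 9 genes at 50 FPKM or more in controls (Psma6, Psmb4, Psmb5, Psmb6, Psmb7, Psmc1, Psmc3, Psmc5 and Psmd2) all lay below 0, with a median of −0.07, while 7 of 9 did when scaled without mitochondrial and haemoglobin genes and 6 of 9 in the hearts with little Myl7. On the TPM scale and with median-of-ratios factors 9 of 9 did, and with quantile normalization 7 of 9. The 25 genes under that level had 15 below 0 and a median of −0.02. Over the whole table, 479 of the 673 genes at 50 FPKM or more lay below 0, with a median of −0.08. Across the 34 genes, level and difference had a Spearman rho of −0.634, and across all 9987 genes −0.277. These are descriptions over genes of the same libraries, and what part the level of a gene has in its difference was not tested.

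Across hearts, after each group's mean was subtracted, the 7 alpha ring genes varied together: their mean pairwise Pearson r was 0.69 over 21 pairs, against 0.18 over all pairs of tested genes. Without control replicate 4 and A-PDK1KO replicate 2 the values were 0.38 and 0.06. In the beta ring the mean r was 0.04, and 0.09 without those hearts. Over the 136 pairs of regulatory subunits it was 0.27, and 0.23 without them, and between core and regulatory subunits 0.14 and 0.03. These pairs share libraries and their scaling and are given as descriptions.

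Upstream windows of 250 bases were found in RefSeq for 28 of the 34 genes and searched on both strands, counting matches that overlap. A proteasome gene counted if any of its windows matched, and 2 of them had 2 windows, while the background is a share of single windows. The antioxidant response element TGACNNNGC was present for 5 genes (Psmb5, Psmb6, Psmc6, Psmd9 and Psmd12), 17.9%, against 10.2% of the 32851 windows of all genes. The palindrome that nuclear respiratory factor 1 binds was present for 6 genes (Psma2, Psma3, Psma4, Psmc4, Psmc5 and Psmd14), 21.4% against 4.98%. CCAAT was present for 11, 39.3% against 33.8%, and the E-box CACGTG for 2, 7.14% against 6.02%. Of the 5 genes with the antioxidant element, Psmb5 and Psmb6 had differences of −0.17 and −0.12, Psmd12 of −0.02, Psmc6 of 0.03 and Psmd9 of 0.13, so they did not share a direction. A match describes letters only.

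Cells exposed to interferon exchange the 3 catalytic beta subunits for Psmb8, Psmb9 and Psmb10, which shift the peptides produced toward those presented by MHC class I molecules. Neither limma nor voom called any of the 3, and 1, Psmb10, passed at an unadjusted p under 0.05 by limma. Psmb10, which replaces Psmb7, was at 15.1, 13.7, 16.1, 16.6 and 14.5 FPKM in control replicates 1 to 5 against 11.1, 15.1, 10.7, 12.5 and 12.0 FPKM in A-PDK1KO replicates 1 to 5. A-PDK1KO replicate 2 lay among the controls and the other 4 below all of them (−0.29 ± 0.09, limma adjusted p = 0.130). Without that heart the adjusted p was 0.0410, and with median-of-ratios factors 0.0256. Psmb8 averaged 3.23 and 2.74 FPKM (−0.18, adjusted p = 0.355) and Psmb9 1.03 and 1.05 FPKM (0.02, adjusted p = 0.965). As a share of the pair with Psmb7, Psmb10 was 21% ± 2.23 in controls and 17.7% ± 1.76 in A-PDK1KO hearts (SD, n = 5 each), in ranges that overlapped, 18.3% to 23.6% and 15.9% to 20.5%. Psmb8 made up 3.11% and 3.00% of its pair with Psmb5, and Psmb9 1.58% and 1.79% of its pair with Psmb6.

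Other caps can take the place of the regulatory particle. Of the activator genes Psme1, Psme2, Psme3 and Psme4, limma and voom called 0, none passed at an unadjusted p under 0.05, and 4 lay below 0. Psme1 averaged 39.7 and 38.9 FPKM in control and A-PDK1KO hearts, Psme2 19.4 and 16.9 FPKM (−0.20, adjusted p = 0.416), Psme3 16.8 and 16.1 FPKM, and Psme4, which caps the core without ATP, 30.2 and 29.8 FPKM (−0.03, adjusted p = 0.933). The inhibitor gene Psmf1 averaged 2.72 and 2.97 FPKM (adjusted p = 0.721). Of the chaperones that build the core, Pomp, which matures the beta rings, was at 16.7, 15.3, 16.4, 16.7 and 15.3 FPKM in controls and at 17.7, 18.2, 15.7, 18.5 and 17.9 FPKM in A-PDK1KO hearts. All A-PDK1KO hearts but replicate 3 lay above every control, and the difference of 0.12 ± 0.06 was not called (adjusted p = 0.38). Psmg1 averaged 10.0 and 9.69 FPKM and Psmg4 12.9 and 11.1 FPKM, also without a call, and Psmg3 was under the filter.

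Among 14 genes for deubiquitinases, ligases and adaptors that bind the proteasome, limma called 0. At an unadjusted p under 0.05, 4 passed by limma, all higher, where 8.53% of all genes passed in that direction, and voom called 0. Zfand5, an adaptor that stimulates the proteasome and is induced in wasting muscle, averaged 9.30 ± 0.809 and 11.2 ± 1.21 FPKM (0.25, adjusted p = 0.176). Akirin2, which brings proteasomes into the nucleus, was at 15.99, 17.1, 16.5, 21.8 and 18.1 FPKM in control replicates 1 to 5 against 19.4, 20.9, 21.3, 21.4 and 23.6 FPKM in A-PDK1KO replicates 1 to 5. Control replicate 4 lay among the A-PDK1KO hearts and the other controls below all of them (0.25 ± 0.09, adjusted p = 0.180, and 0.0491 without that heart). The shuttle gene Ubqln2 averaged 6.94 and 8.35 FPKM (0.24, adjusted p = 0.232). Zfand2a, the fourth, averaged 2.80 and 3.66 FPKM (0.28, adjusted p = 0.265) and was named after its value was seen.

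When proteolysis is blocked, the factor encoded by Nfe2l1 escapes degradation and activates proteasome genes. Of the 8 genes listed with this route, which include Nfe2l2 and Keap1 of the oxidative stress response, limma and voom called 0. None passed at an unadjusted p under 0.05. Nfe2l1 averaged 88.9 ± 6.74 and 98.6 ± 10.6 FPKM (0.14, adjusted p = 0.418). Nfe2l2, its relative that answers to oxidative stress, averaged 14.3 and 12.9 FPKM (−0.14, adjusted p = 0.510), and the ligase gene Syvn1 2.93 and 2.43 FPKM (adjusted p = 0.512). Among 9 enzymes of the Nfe2l2 response, Hmox1, which breaks down haem, was called higher, and 1.21% of all genes were called in that direction. At an unadjusted p under 0.05, 5 of the 9 passed by limma, all higher, where 8.53% of all genes passed in that direction. Of the 9 differences, 6 lay above 0 and 3 below. Hmox1 was at 12.6, 21.4, 9.10, 5.61 and 12.6 FPKM in controls and at 24.4, 32.4, 33.8, 18.9 and 27.9 FPKM in A-PDK1KO hearts. The groups overlapped, since A-PDK1KO replicate 4 lay below control replicate 2. The means, 12.3 and 27.5 FPKM, differed by 1.19 ± 0.26 (adjusted p = 0.0400), and the call held without control replicate 2 or A-PDK1KO replicate 4 but was lost without any other single heart, with adjusted p from 0.0525 to 0.103. Over the 24 other settings it was lost in 14, including quantile normalization (0.0526), the TPM scale (0.051), median-of-ratios factors (0.0585), robust variances (0.0934) and the hearts with little Myl7 (0.124). Txnrd1 averaged 5.68 and 7.92 FPKM (0.39, limma adjusted p = 0.163) and Srxn1 13.7 and 17.9 FPKM (0.35, adjusted p = 0.196). Both were highest in A-PDK1KO replicate 2. The 3 below 0 were Nqo1 (32.65 and 32.11 FPKM, −0.02, limma adjusted p = 0.924), Gstm1 (−0.02, 0.944) and Osgin1 (−0.07, 0.910), named after their values were seen.

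Of the genes in all these lists, Ubb, which encodes ubiquitin repeats, had the smallest adjusted p. It was at 191.6, 255.6, 181.8, 222.4 and 224.7 FPKM in control replicates 1 to 5 against 315.3, 297.5, 293.6, 305.7 and 312.5 FPKM in A-PDK1KO replicates 1 to 5, from 2866 to 5830 reads per heart. Every A-PDK1KO heart lay above every control heart. The means were 215.2 ± 29.3 and 304.9 ± 9.35 FPKM, 1.42-fold higher in A-PDK1KO hearts, a log2 difference of 0.51 ± 0.08 (limma adjusted p = 0.0127). The call held in 23 of the 24 other settings, and in the 3 against 3 hearts with little Myl7 the difference was 0.63 (adjusted p = 0.107).

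Of the 6 ubiquitin and E1 genes tested, 1 was called, where 1.21% of all genes were called higher. Genes that encode ubiquitin share near-identical sequence, and the sources used here do not say how the authors' counting treated reads that match more than 1 of them, so the count of Ubb is uncertain.

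**Figure D5:**
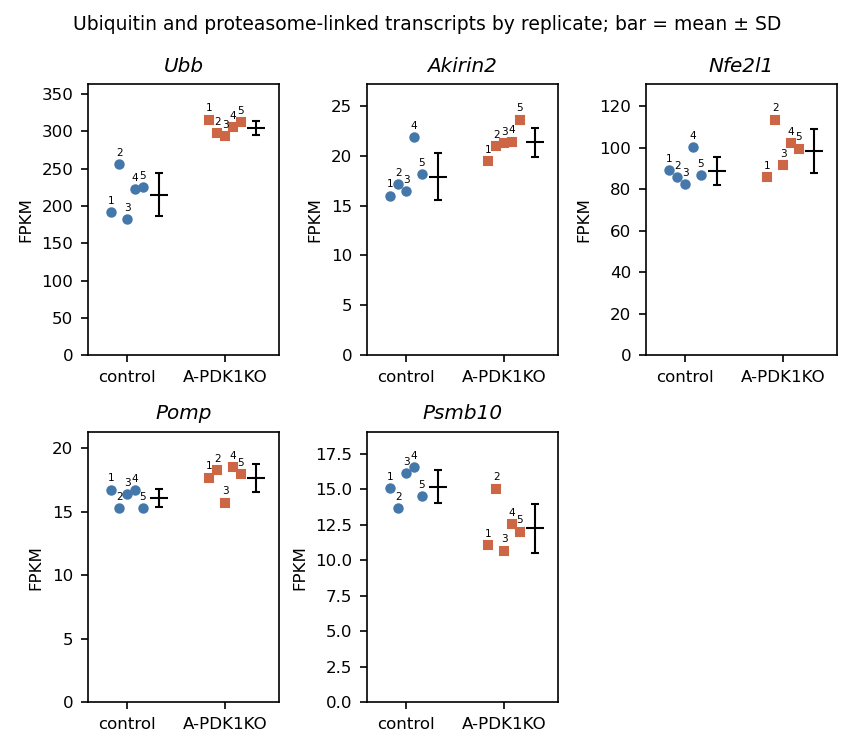
FPKM of Ubb, Akirin2, Nfe2l1, Pomp and Psmb10 in each heart, with points numbered by replicate, circles for control and squares for A-PDK1KO hearts, and bars for mean ± SD (n = 5 per group). Ubb is separated between groups, from 181.8 to 255.6 FPKM across controls and from 293.6 to 315.3 FPKM across A-PDK1KO hearts, while the other 4 overlap and were not called.

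Among 10 genes for p97 (Vcp) and its cofactors, which pull substrates out of complexes and membranes before degradation, limma and voom called 0, and 2 passed at an unadjusted p under 0.05 by limma, Ubxn6 and Faf1, both lower, where 7.03% of all genes passed in that direction. Ubxn6 was at 12.9, 12.5, 12.6, 12.6 and 13.1 FPKM in controls and at 11.5, 11.3, 11.1, 11.8 and 11.3 FPKM in A-PDK1KO hearts, without overlap, as were 2.23% of all genes in this direction. The difference of −0.15 ± 0.05 was not called (adjusted p = 0.198). Faf1 averaged 14.4 and 12.8 FPKM (−0.15, adjusted p = 0.265) and Ubxn1 26.5 and 24.3 FPKM (−0.12, adjusted p = 0.483).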

How the data were processed

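RNA from the hearts of 5 A-PDK1KO and 5 control mice was sequenced, and each sample was grouped by its genotype label. The authors deposited FPKM values, which are fragments scaled to gene length and library size, for 11790 genes. Reads were paired and assessed with FastQC 0.11.7 per the labels' protocols, and the submitters' processing notes name Trimmomatic 0.38, HISAT2 2.1.0, featureCounts 1.6.3 and build mm10. The sources used here do not give the annotation or the strand setting. Every gene reached at least 1.00 FPKM in some heart, so genes below that are not analysed here.

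Values were converted to log2(FPKM + 1). Those averaging 1 FPKM or more entered a linear model in limma 3.58.1 under R 4.3.3 (empirical Bayes with a trend, two-sided, A-PDK1KO minus control, no covariate), with Benjamini-Hochberg adjustment of p over all 9987 genes, and calls were made at an adjusted p under 0.05. Differences given with ± and no further mark are log2 differences with their standard error. Folds are ratios of mean FPKM. Whole reads were recovered from the worth of 1 read per gene, using union exon lengths from the GENCODE mouse annotation of the same build: 98.4% of values came out within 0.05 of a whole read, and 98.2% of genes did so in all samples. These reads, which FPKM are not, gave the implied depths and an alternative test with limma voom. On simulated reads of 9806 genes, used to test the limma step, 56% of the genes given a 1.5-fold change and 98% of those given a 2-fold change were called, and 8 of the 162 calls fell on unchanged genes. The simulation gave every gene the same relative spread and let no heart stand apart, so these shares need not hold for the data. No proteasome gene differed by as much as 1.5-fold. Near-identical copies were found with BLAST 2.17.0, and tables were made in Python 3.11.15.

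The proteasome genes and the other lists were chosen with earlier results of these data known. Lists covered each ring, the base, the lid, chaperones, inducible subunits, activators, the inhibitor, adaptors, the Nfe2l1 route, Nfe2l2 response enzymes, ubiquitin genes and p97 cofactors, with markers of 9 cell types. Named with values in every heart were called proteasome genes, the catalytic genes, and those of largest and smallest difference in the alpha ring, the beta ring, the ATPase ring and the remaining cap genes. From the other lists called genes and up to 3 of smallest p were named, with fixed exceptions for a few regulators. Alternatives were another pseudocount, other filters, 4 scalings, a replicate block, robust variances, sample weights, atrial tissue as a covariate or limit, and each heart left out. A fit lacking control replicate 4 and A-PDK1KO replicate 2 was added after seeing the data. The labels do not say how the mice are related, so p values measure the spread between these samples. Results for a few listed genes are not reported here.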

Additional observations from a re-analysis of the deposited data

Results flagged for a closer look

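In 8 of the 74 groups of 5 hearts examined over the proteasome and inducible subunit genes, 1 heart stood apart from the other 4 by a gap above Dixon's critical value of 0.710, a mark that chance gives about 1 group in 20. A-PDK1KO replicate 2 was the high heart in 3 of them: Psma3 at 15.6 FPKM (others 12.1 to 12.7 FPKM), Psmc6 at 27.0 FPKM (others 18.1 to 19.7 FPKM) and Psmb9 at 1.63 FPKM (others 0.818 to 1.01 FPKM). In other A-PDK1KO hearts, Psmc2 was high in replicate 3 at 19.1 FPKM (others 16.04 to 16.74 FPKM), Psmd1 was high in replicate 4 at 15.9 FPKM (others 13.6 to 14.2 FPKM), and Psmb8 was low in replicate 5 at 2.26 FPKM (others 2.81 to 2.96 FPKM). Among controls, Psmc5 was high in replicate 5 at 80.6 FPKM (others 63.1 to 68.0 FPKM) and Psmb8 in replicate 2 at 3.88 FPKM (others 2.92 to 3.17 FPKM). None of these genes was called in the comparison of the groups, and the cause was not tested.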

How the results depend on the processing

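The call of Psmc3 depended on the processing: it held with a filter of 5 FPKM, robust variances and sample weights, and the number of proteasome genes called was 0 with a pseudocount of 0.1, no filter, quantile normalization, the TPM scale, scaling without mitochondrial and haemoglobin genes, median-of-ratios factors, voom, the atrial covariate, the 6 hearts with Myl7 under 10 FPKM, and without control replicate 4 and A-PDK1KO replicate 2 together. Leaving out 1 heart gave 0 to 1. Proteasome genes whose groups did not overlap numbered 1 on the TPM scale, and 0 with quantile normalization, median-of-ratios factors or scaling without mitochondrial and haemoglobin genes. They numbered 4 without both named hearts, where fewer hearts per group make the pattern easier to reach. Genes called in all numbered 58 on the TPM scale (38 higher), 390 without mitochondrial and haemoglobin genes (323 higher, 82.8% against 58.2%), 412 with sample weights, 4 in the hearts with little Myl7 and 57 to 150 with 1 heart left out, and the share higher was 49.3% with median-of-ratios factors. With 1 heart left out, that share was 40.9% without A-PDK1KO replicate 2. Of the called genes named, Psmc3, Ubb and Hmox1 kept their direction in all 24 other settings, and the cause of the lost calls was not tested. A quasi-likelihood count test was not run. The deposited values are FPKM, and the recovered reads were tested with limma voom alone.

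The labels do not say whether replicate numbers pair the samples. Same-numbered hearts had correlations of −0.0472, −0.116, 0.0504, 0.0851 and 0.0821 and none correlated best with its own number. With so few hearts, these values show no sign of pairing but cannot exclude it. With the replicate number as a block, 153 genes and 0 proteasome genes were called (Psmc3 adjusted p = 0.0926), and within pairs the Pdpk1 difference of −0.04 had an exact permutation p of 1. Depth limited the chaperone genes most, at 68 to 189 reads per heart.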
